A study of Mus musculus with 12 samples.

Results

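The 9 genes described here encode the 4 Janus kinases of the mouse (Jak1, Jak2, Jak3 and Tyk2) and 5 of the STAT transcription factors (Stat2, Stat3, Stat5a, Stat5b and Stat6). They were chosen by name, out of 26219 RefSeq genes, and the peaks assigned to them are those for which the deposited tables name one of them as the gene with the nearest start site. All 9 had such a peak: 8 of 8977 Jmjd2a peaks, 11 of 10521 Jmjd2c peaks and 6 of 6940 start-site windows bound by both proteins belonged to them. Jmjd2a (Kdm4a) and Jmjd2c (Kdm4c) are histone demethylases that act on methylated lysine 9 and lysine 36 of histone H3, and the study asked which genes they occupy in leukaemic cells.

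Janus kinases sit on the intracellular tails of cytokine receptors, which have no kinase activity of their own. When a cytokine brings receptor chains together, the kinases phosphorylate each other, the receptor and the STAT proteins docked on it, and the phosphorylated STATs pair up, enter the nucleus and switch on genes. Interleukin-3, on which the cells studied here were grown, signals in myeloid progenitors mainly through Jak2 and the STAT5 pair.

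The cells were granulocyte-macrophage progenitors transformed with the MLL-AF9 fusion (L-GMP), on a C57BL/6 background and derived from leukaemic mice. All of them, controls included, carried the genotype Jmjd2a/b/c f/f;Rosa26::CreERT2, in which the 3 demethylase genes Jmjd2a, Jmjd2b and Jmjd2c are floxed and a Cre that responds to tamoxifen is made from the ubiquitously active Rosa26 locus. They were kept in 20% serum with 10 ng/ml interleukin-3. Chromatin was taken without treatment (Ctrl) and after 96 h in 500 nM 4-hydroxytamoxifen (OHT), with 1 library per condition for Jmjd2a and for Jmjd2c and 2 per condition for each of trimethylated lysine 9 and trimethylated lysine 36, 12 libraries in 8 groups. The peak tables hold positions only, with no height, score or value per library. The libraries behind each list are not named, so the depth is unknown, neither the effect of OHT nor the histone marks could be analysed, and no value below has a replicate error. The cell type cannot be checked from peak positions.

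Stretches of promoter sequence from RefSeq (build GRCm38.p6, the primary assembly of mm10) are shown here for some of the starts whose peaks are described below. The start of Stat5a and the downstream one of the 2 Stat5b starts resemble each other. Both lay under a Jmjd2c peak, with no Jmjd2a peak within 1000 bp. Capitals mark bases that are identical in the alignment of this pair.
Stat5a start (chr11:100860381-100860482, plus strand): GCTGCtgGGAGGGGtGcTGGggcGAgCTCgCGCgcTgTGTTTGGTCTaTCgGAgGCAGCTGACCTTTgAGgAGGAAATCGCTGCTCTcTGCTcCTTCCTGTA
Stat5b downstream start (chr11:100822563-100822664, minus strand): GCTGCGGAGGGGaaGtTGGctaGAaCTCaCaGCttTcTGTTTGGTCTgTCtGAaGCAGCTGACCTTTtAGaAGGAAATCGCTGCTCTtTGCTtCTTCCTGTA

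The next 3 stretches have their CpG dinucleotides in capitals. Those of Stat5b and Jak2 end at the base before the RefSeq start. That of Stat6 ends 33 bases further upstream, so its CpG are not counted over the same positions. The upstream Stat5b start carried both proteins and Jak2 and Stat6 carried Jmjd2c alone.
Stat5b upstream start (chr11:100850582-100850701, minus strand): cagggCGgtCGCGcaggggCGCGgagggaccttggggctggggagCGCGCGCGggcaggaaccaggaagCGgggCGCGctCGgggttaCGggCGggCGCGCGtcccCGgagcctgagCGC
Jak2 (chr19:29251683-29251802, plus strand): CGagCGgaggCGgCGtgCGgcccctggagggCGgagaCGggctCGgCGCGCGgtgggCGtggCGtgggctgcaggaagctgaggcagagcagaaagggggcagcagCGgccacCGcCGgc
Stat6 (chr10:127642833-127642952, plus strand): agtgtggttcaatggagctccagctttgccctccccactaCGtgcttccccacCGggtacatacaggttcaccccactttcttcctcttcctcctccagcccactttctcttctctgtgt

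The last stretch lies in the gap between 2 Jmjd2a peaks at Stat2 and ends at the base before the RefSeq start, and its capitals mark the CCAAT sequence.
Stat2 (chr10:128270377-128270497, plus strand): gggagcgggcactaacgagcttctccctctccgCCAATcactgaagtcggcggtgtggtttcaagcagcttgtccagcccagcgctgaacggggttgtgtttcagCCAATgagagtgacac

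Jmjd2c was called at a start site of all 9 genes, and Jmjd2a at 6 of them. The set was defined through peaks that name these genes, and all 9 have one. The counts therefore describe the set and are no test against all genes. A gene was counted as occupied when a peak edge lay within 1000 bp of a start site that the tables name for it. Over all RefSeq genes, 37.9% were occupied by Jmjd2c and 27.4% by Jmjd2a, and over protein-coding genes 44.6% and 32.3%. The 6 genes with Jmjd2a were Jak1, Jak3, Tyk2, Stat2, Stat3 and Stat5b, and all 6 also carried Jmjd2c, which held for 24.5% of RefSeq genes and 29% of protein-coding genes. Jak2, Stat5a and Stat6 carried Jmjd2c alone. Among all genes with Jmjd2c 64.7% also had Jmjd2a, which is close to the 6 of 9 found here. When each list was reduced to its wider 50% of peaks, 2 of the 9 genes kept Jmjd2a, 6 kept Jmjd2c and 0 kept both proteins. Over RefSeq genes the shares in that setting were 16.5%, 22.9% and 10.0%.

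**Figure D1:**
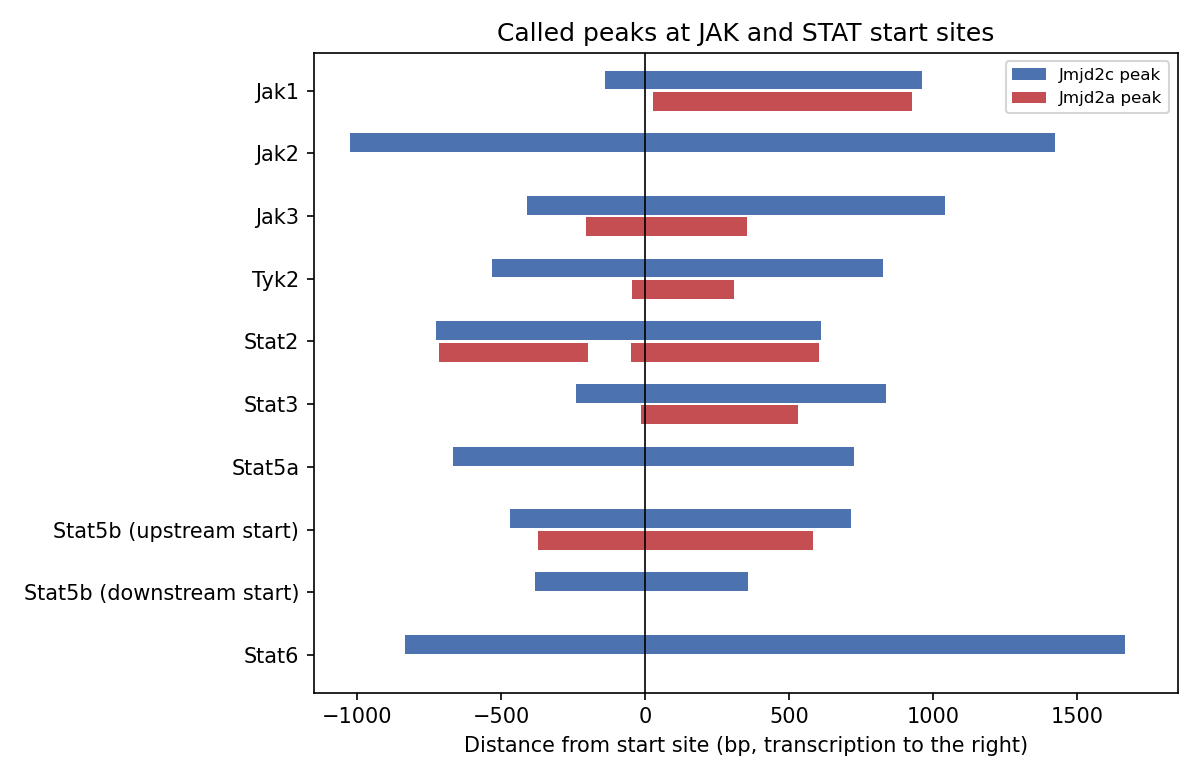
Called peaks at each start site of the JAK and STAT genes named in the tables, drawn by distance in bp from the start with transcription to the right; blue bars are Jmjd2c peaks and red bars Jmjd2a peaks. Each of the 10 Jmjd2c peaks crosses the start, whereas the 7 Jmjd2a peaks lie inside Jmjd2c peaks and are absent at Jak2, Stat5a, Stat6 and the downstream Stat5b start.

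Among the kinases, Jak1, which serves interferon, interleukin-2 and interleukin-6 family receptors, had the closest match between its peaks. Its Jmjd2c peak spanned 1098 bp (chromosome 4, 101264322 to 101265419) and its Jmjd2a peak 901 bp (101264355 to 101265255) over exon and intron sequence of the gene (101151974 to 101265282, minus strand). On the downstream side the Jmjd2a edge lay 33 bp inside the Jmjd2c edge, and on the upstream side 164 bp. The Jmjd2a peak did not reach the start named in the tables, ending 27 bp downstream of it, but it covered the start 101265223 of the RefSeq promoter table. Its width was 0.82 times that of the Jmjd2c peak, a ratio above 73.6% of all overlapping pairs near a start. The Jmjd2c peak was narrow for its list, wider than 29.2% of peaks near a start, and the Jmjd2a peak was wider than 62.5% of its own.

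A further Jmjd2c peak of 1509 bp lay 26646 bp upstream of Jak1 (chromosome 4, 101291928 to 101293436), over no annotated RefSeq feature and overlapping no Jmjd2a peak. It was wider than 89.1% of the 905 Jmjd2c peaks lying over 10000 bp from any start, whose median was 823 bp. Of these distal peaks 70.3% overlapped no RefSeq feature and 59.4% overlapped no Jmjd2a peak. Jak1 was the only kinase gene of the family with a distal peak in either list. The tables assign such a peak to Jak1 by distance alone.

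Jak2, the kinase of the interleukin-3, erythropoietin and thrombopoietin receptors, had Jmjd2c alone. The peak spanned 2450 bp (chromosome 19, 29250777 to 29253226), reached from 1026 bp upstream to 1423 bp downstream of the start (29251803, plus strand; gene to 29313095), and was wider than 95.9% of Jmjd2c peaks near a start. The nearest Jmjd2a peak of the list was 149893 bp from this start and was assigned to Rcl1. Of the JAK genes it had the widest Jmjd2c peak and was the only one without a Jmjd2a call. No call does not show that the protein is absent, since weak sites are missed at a depth that is unknown.

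Jak3, the kinase that pairs with the common gamma chain of lymphoid cytokine receptors, carried both proteins. Its Jmjd2c peak spanned 1454 bp (chromosome 8, 71675973 to 71677426) and its Jmjd2a peak 560 bp (71676177 to 71676736), both over the start (71676383, plus strand; gene to 71690577). Another pair of peaks lay 3705 bp (Jmjd2c) and 4399 bp (Jmjd2a) further upstream, over a region that the tables annotate as Jak3 promoter but nearest to a start of Unc13a (71671757), a gene of synaptic vesicle priming. There the Jmjd2c peak measured 2241 bp and the Jmjd2a peak 837 bp, both wider than the peaks at Jak3 itself. They were not counted for Jak3.

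Tyk2, which transmits type I interferon and interleukin-12 signals, had the narrowest Jmjd2a peak at a start in the family. It measured 357 bp (chromosome 9, 21130965 to 21131321), wider than only 5.56% of Jmjd2a peaks near a start, and ran from 46 bp upstream to 310 bp downstream of the start (21131275, minus strand; gene 21104068 to 21131393). The Jmjd2c peak around it was of ordinary width, at 1357 bp (21130450 to 21131806, wider than 49.3% of its list), so that the Jmjd2a peak had 0.26 times its width.

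Of the STAT genes, Stat2, the partner of interferon signalling that forms a complex with Irf9, was the only one of the 9 genes with a pair of Jmjd2a peaks at 1 start. The upstream one spanned 516 bp (chromosome 10, 128269861 to 128270376) and lay over the coding sequence and the transcript end of the neighbouring gene Apof. The other spanned 652 bp (128270529 to 128271180) and covered the start of Stat2 named in the tables (128270576, plus strand; gene to 128292853). The start of the RefSeq promoter table (128270498) lay 31 bp upstream of this peak. A single Jmjd2c peak of 1335 bp (128269852 to 128271186) held both. Its outer edges lay 9 bp and 6 bp beyond those of the Jmjd2a peaks, which together covered 87.5% of it. Of all Jmjd2c peaks near a start that overlap Jmjd2a, 8.3% overlap 2 or more Jmjd2a peaks.

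The gap between the Stat2 peaks was 152 bp, and it held the stretch printed above with 2 CCAAT sequences. These began 88 and 16 bases before the RefSeq start. Of the Stat2 Jmjd2c peak, 724 bp lay upstream of the start in the tables and 610 bp downstream. From the RefSeq start the order turned, with 646 bp before it and 688 bp after it.

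Stat3, the effector of interleukin-6 and of granulocyte colony-stimulating factor, had a Jmjd2c peak of 1078 bp (chromosome 11, 100938674 to 100939751) and a Jmjd2a peak of 548 bp (100938979 to 100939526). The Jmjd2a peak began only 15 bp upstream of the start (100939511, minus strand; gene 100886806 to 100939594) and reached 532 bp downstream, so 97.3% of it lay in the transcribed direction. The start of the RefSeq promoter table (100939540) lay 14 bp upstream of the Jmjd2a peak but under the Jmjd2c peak. Both the Jmjd2c and the Jmjd2a peak also lay within 1000 bp of a RefSeq start of the noncoding RNA gene Gm46295 (100938338).

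Stat6, the effector of interleukin-4 and interleukin-13, resembled Jak2. Its Jmjd2c peak spanned 2502 bp (chromosome 10, 127642151 to 127644652), the widest in the family and wider than 96.4% of Jmjd2c peaks near a start, and extended 1666 bp downstream of the start (127642986, plus strand; gene 127642955 to 127660987). No Jmjd2a peak lay closer than 31891 bp, and that one was assigned to Tmem194. Jmjd2c peaks near a start without Jmjd2a had a median width of 1244 bp over the genome, below the 1425 bp of those with Jmjd2a. Jak2 and Stat6 were wider than 96.3% and 96.8% of the peaks without Jmjd2a, whereas Stat5a (1393 bp) was wider than 60.6%.

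**Figure D2:**
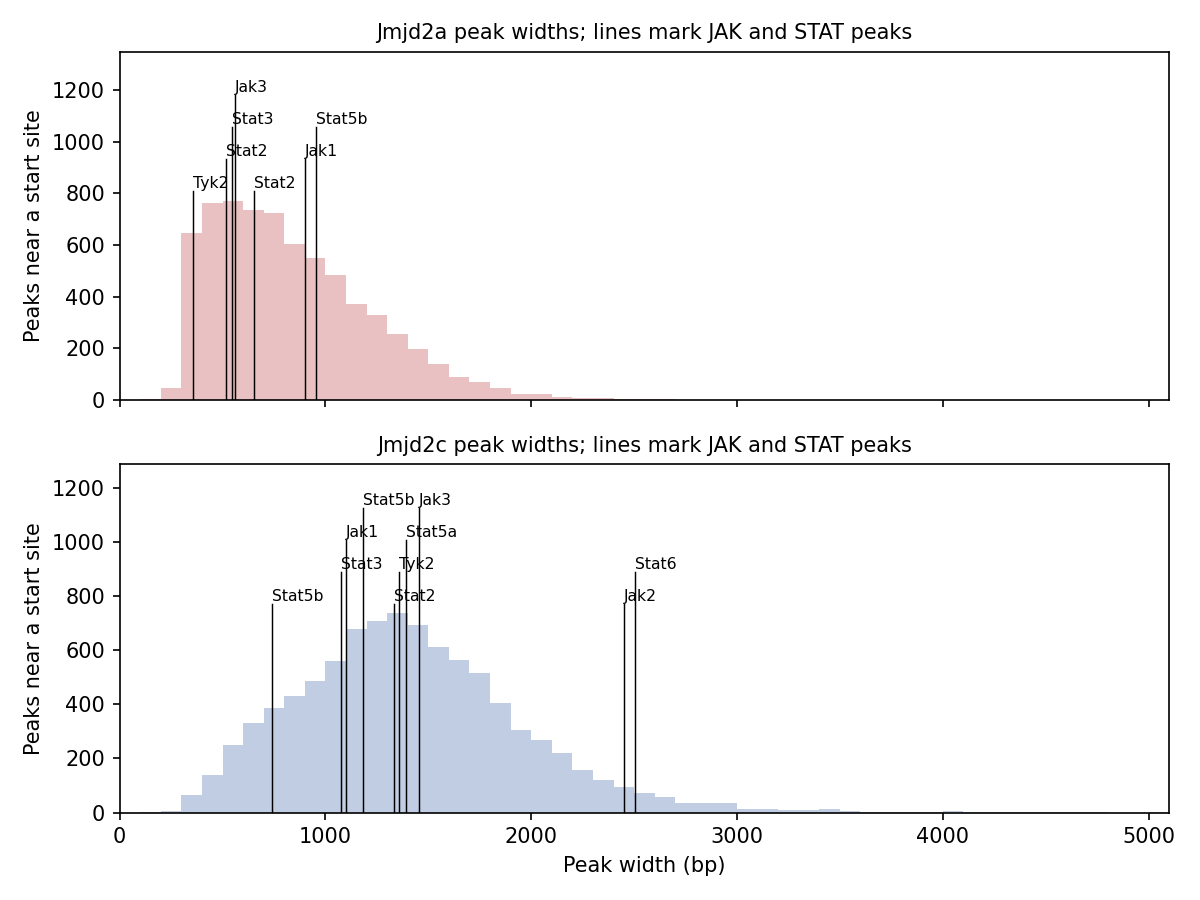
Distribution of peak widths in bp for the 6908 Jmjd2a peaks (top) and 9053 Jmjd2c peaks (bottom) within 1000 bp of a start, in bins of 100 bp, with a labelled line for each JAK or STAT peak. Line heights only separate the labels; the Jmjd2a lines run from 357 to 954 bp, and on the Jmjd2c axis Jak2 and Stat6 stand apart from the other 8 lines, at 2450 and 2502 bp.

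Stat5a and Stat5b encode the closely related effectors of interleukin-3 and of many other haematopoietic cytokines, and they differed in what was called at their starts. The genes lie head to head on chromosome 11, with Stat5b (100780731 to 100859004) on the minus strand, Stat5a (100859351 to 100885169) on the plus strand and 346 bp between their spans. Stat3 follows 1636 bp beyond Stat5a. In the 158864 bp from Stat5b to Stat3 there were 4 Jmjd2c and 3 Jmjd2a peaks, all named for one of the 3 genes.

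The Stat5b gene span reaches upstream to 100859004, beyond both starts named in the tables. Of these starts the upstream one (100850585) carried both proteins. Its Jmjd2c peak spanned 1182 bp (100849871 to 100851052), and its Jmjd2a peak of 954 bp (100850002 to 100850955) was the widest Jmjd2a peak in the family and stood in a ratio of 0.81 to the Jmjd2c peak. The downstream start of Stat5b (100822570), 28015 bp away inside the longer transcript, had a Jmjd2c peak of 738 bp (100822214 to 100822951), the narrowest Jmjd2c peak at a start in the family, wider than 10.1% of its list. The nearest Jmjd2a peak was 17319 bp from that start. This was a peak of 325 bp (100804927 to 100805251) inside the Stat5b gene, over exon, intron and coding sequence, with no Jmjd2c overlap. It was wider than 4.13% of the 1381 Jmjd2a peaks over 10000 bp from a start, of which 71.9% overlapped no Jmjd2c peak and 69.1% lay over no RefSeq feature.

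Stat5a had a Jmjd2c peak of 1393 bp (100859817 to 100861209) over the start named in the tables (100860484). Its RefSeq alternative start (100859656) lay 161 bp outside this peak. The nearest Jmjd2a peak was the one at the upstream Stat5b start, 9529 bp from the Stat5a start. The 2 STAT5 genes thus shared Jmjd2c but not a Jmjd2a call, and 9899 bp separate the Stat5a start from the upstream Stat5b start.

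**Figure D3:**
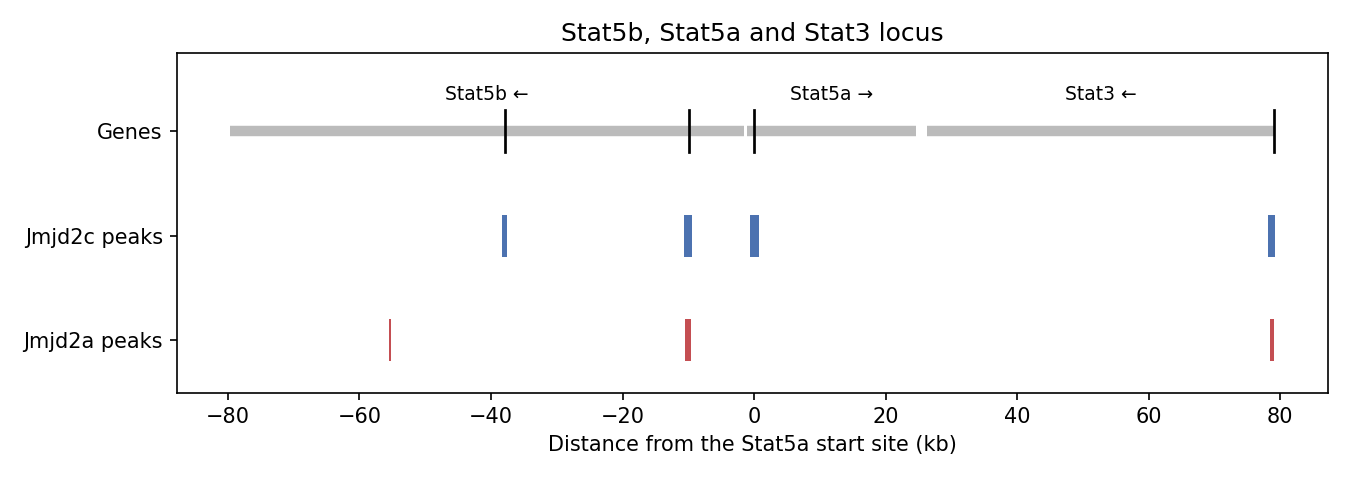
Gene spans of Stat5b, Stat5a and Stat3 (grey, arrows give the direction of transcription, black ticks the start sites named in the tables) with Jmjd2c (blue) and Jmjd2a (red) peaks drawn to scale by distance in kb from the Stat5a start. Jmjd2c has 4 peaks, 1 at each start, and Jmjd2a has 3, of which the leftmost lies inside Stat5b away from any start.

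Every Jmjd2a peak at a start in the family lay wholly inside a Jmjd2c peak (7 of 7), as did 63.7% of all Jmjd2a peaks near a start that overlap Jmjd2c. The 7 widths ran from 357 to 954 bp with a median of 560 bp, against 761 bp for all 6908 Jmjd2a peaks near a start. The 10 Jmjd2c peaks at a start ran from 738 to 2502 bp with a median of 1346 bp, against 1366 bp for all 9053. All 10 Jmjd2c peaks covered a start named in the tables (91% of all such peaks did) and 5 of the 7 Jmjd2a peaks did (66.7%). In 8 of these 10 and in all 5 of these Jmjd2a peaks, more than 50% of the width lay downstream of the start, as in 80.9% of all Jmjd2c and 73.4% of all Jmjd2a peaks that cover a single named start of known strand.

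In the 6 windows of the authors' deposited table of start sites bound by both proteins, as in all windows, coverage was higher downstream of the start than upstream. At 500 bp upstream of the start a Jmjd2a peak covered 1 of the 6 windows (Stat2) and a Jmjd2c peak 2 (Stat2 and Tyk2), against 40.4% and 64.5% of all 6940 windows. At 500 bp downstream the counts were 4 and 6, against 54.8% and 88.3%. At the start itself they were 5 and 6, against 67.2% and 94.1%.

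Promoter sequence varied widely within the family. In RefSeq windows of 300 bases, from 250 before to 50 after a start, the number of CpG dinucleotides ran from 5 at the Stat5a alternative start to 50 at the upstream Stat5b start, which exceeded 98.9% of 23307 promoters. All 9 genes were matched, with 11 windows. Over the genome, promoters with both proteins within 1000 bp had a median of 24 CpG, those with Jmjd2c alone 22 and those with neither 4. Jak2 had 44 CpG, Jak1 29, Stat5a 27 at the start named in the tables, Tyk2 23, Stat2 22 and Stat3 15. Jak3 had 9, Stat6 8 and the downstream Stat5b start 7. Stat3 and Jak3 lay below 17, the lower quartile of promoters with both proteins, and Stat6, the downstream Stat5b start and the Stat5a alternative start below 14, that of promoters with Jmjd2c alone. The widest Jmjd2c peaks of the family thus lay over a CpG-rich promoter, Jak2, and a CpG-poor one, Stat6. The printed Stat6 stretch holds only 2 of the 8 CpG of its window, against 16 of 44 for Jak2. It lies further upstream, so the window counts are the like comparison.

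**Figure D4:**
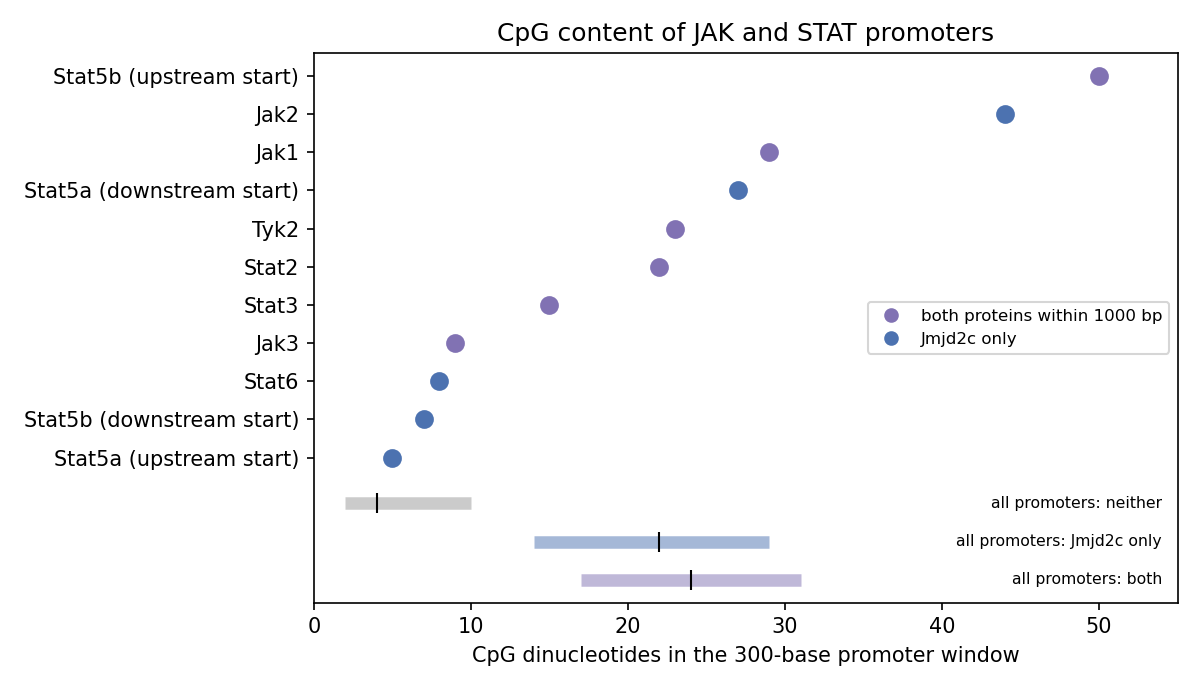
Number of CpG dinucleotides in the 300-base RefSeq promoter window of each JAK and STAT start (points; purple with both proteins within 1000 bp, blue with Jmjd2c alone); bars below give the quartiles and ticks the median over all promoters of each class. The family spans 5 to 50 CpG. The lowest points, at 5, 7 and 8, are blue, and the lowest purple point is Jak3 at 9. The highest point, at 50, is purple, and the next, Jak2 at 44, is blue.

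The likeness of the Stat5a and Stat5b starts stood out among the 55 pairs of the 11 windows. Their best local alignment had 83 identical positions in 104 columns, 4 of them gaps (79.8% identical), and covered positions -103 to -2 relative to the Stat5a start and -94 to 7 relative to the Stat5b start. Its score was 98, and the next best pair, Jak2 with the upstream Stat5b start, reached 33 over 44 columns. No other pair of windows scored above that. Both starts of the pair lay under Jmjd2c peaks without Jmjd2a, and how uniquely reads map to the shared sequence was not tested.

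The STAT recognition sequence TTCNNNGAA was found in none of the 11 windows on either strand. It was in 7.98% of all promoter windows, 6.51% of those with both proteins and 6.73% of those with Jmjd2c alone. CCGGAA, a sequence bound by ETS factors and longer than their common core, was found at Stat2, the upstream Stat5b start and Stat6. Other forms of the ETS site were not searched, so windows without CCGGAA may hold one. It was in 18.3% of all promoter windows, 33.2% of those with both proteins and 31.8% of those with Jmjd2c alone. CCAAT, the NF-Y box, was found at Jak1, Tyk2, Stat2 and Stat3, all with both proteins (38.3% of all, and 39.4% with both proteins against 36.5% with Jmjd2c alone). GGGCGG, the GC box, was found in all windows but those of Stat6, the Stat5a alternative start and the downstream Stat5b start. That is 8 of 11 windows, beside 45.2% of all promoters, 70.1% of those with both proteins and 68.6% of those with Jmjd2c alone. The CCAAT and GC box searches were added after the sequences were seen. Both strands were searched, and a match is a string of letters, not a shown binding site.

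The other genes of the pathway are described by the role of their products. Of 29 cytokine receptor genes 12 had Jmjd2c (41.4%) and 5 had Jmjd2a (17.2%). The shares were 37.9% and 27.4% over RefSeq genes, and 44.6% and 32.3% over protein-coding genes. With the wider 50% of peaks 3 receptor genes had Jmjd2c, against 22.9% of RefSeq genes, and 3 had Jmjd2a, against 16.5%. Both proteins were at Csf2ra, Il3ra and Il6st, and Csf3r, the granulocyte colony-stimulating factor receptor, had Jmjd2c alone. Of 20 inhibitors of the pathway 14 had Jmjd2c (70%) and 9 had Jmjd2a (45%), both being at 8, among them the ubiquitin ligase genes Cbl (Jmjd2a 450 bp, Jmjd2c 918 bp) and Cblb (1513 and 1726 bp) and the STAT inhibitor genes Pias1 (681 and 1505 bp) and Pias2 (1528 and 1680 bp).

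Of 12 genes for adaptors and STAT partners 11 had Jmjd2c and 9 both, including the coactivator genes Crebbp (350 and 1832 bp) and Ncoa1 (1508 and 1826 bp) and the adaptor genes Gab2 and Grb2. Of 12 STAT5 target genes 7 had Jmjd2c and 5 both, including Bcl2l1, Ccnd3 (494 and 1402 bp), Myc and Pim2 (446 and 676 bp), and 5 had neither. Of 28 other cytoplasmic tyrosine kinase genes 14 had Jmjd2c, 9 had Jmjd2a and 13 had neither, with both proteins at Abl1, Abl2, Fer and Fyn among 8. The 4 Janus kinase genes, by comparison, had 4 with Jmjd2c and 3 with Jmjd2a. Over protein-coding genes the shares were 44.6% for Jmjd2c, 32.3% for Jmjd2a and 29% for both. Neither protein was called at 15 receptor genes, 5 inhibitor genes and 1 adaptor or partner gene. In each list only occupied genes are named, so the names do not stand for the list. With the wider 50% of peaks both proteins were left at 2 of 29 receptor and 3 of 20 inhibitor genes. They were left at 3 of 12 adaptor and partner, 1 of 12 target and 4 of 28 other kinase genes. In that setting both were at 10.0% of RefSeq genes. These lists are small and were not tested against one another.

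**Figure D5:**
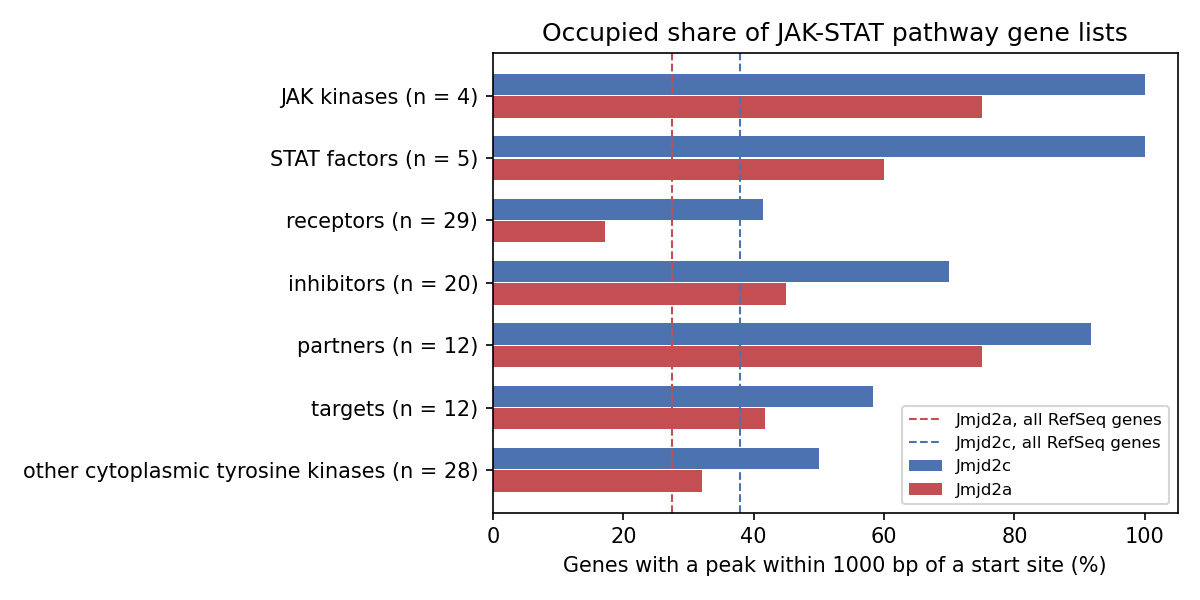
Share of genes in each list, in percent, with a Jmjd2c (blue) or Jmjd2a (red) peak within 1000 bp of a start; dashed lines give the share of all RefSeq genes, 37.9% and 27.4%. Jmjd2c reaches all 4 JAK and all 5 STAT genes, and the receptor list lies closest to the Jmjd2c line. The shares of protein-coding genes, 44.6% and 32.3%, are higher and are not drawn.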

How the data were processed

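Positions in bp of Jmjd2a and Jmjd2c peaks, with nearest RefSeq start sites, and of windows reaching 1000 bp to each side of co-bound starts were deposited by the authors. The build was mm10 and the tools included Bowtie 0.12.7, bedtools 2.25.0 and SAMtools, per the submitters' processing notes. The sources used here do not give the peak caller, its threshold or any pooling. Positions were read as counting from 0 with an open end and are printed from 1. Accessions were matched to a RefSeq table on GRCm38.p6 (16875 of 17007), and otherwise by symbol. A start within 1000 bp of a peak edge made a gene occupied. Overlap needed 1 bp. Promoter windows were aligned locally (match 2, mismatch -3, gap opening -5, extension -2). The occupancy step was tested on simulated data. Alternatives were windows of 500 and 5000 bp, the wider 50% of peaks, starts of the RefSeq promoter table, protein-coding genes and other overlap rules. Python 3.11.15, numpy 2.4.6, Biopython 1.88 and matplotlib 3.10.9 were used.

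The genes and lists were chosen with earlier results of these data known. Named were the 9 genes, genes sharing their peaks and, per list, up to 4 occupied genes, those with both proteins first, in alphabetical order. Neighbours of nearest peaks were added after their values were seen. Other STAT genes are not reported here. No test was made, since there is 1 list per protein.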

Additional observations from a re-analysis of the deposited data

How the results depend on the processing

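The 6 genes with Jmjd2a, the 9 with Jmjd2c and the 6 with both were the same in number with windows of 500 and 5000 bp and with the starts of the RefSeq promoter table. With the wider 50% of each list, Jmjd2a was left at 2 genes (Jak1 and Stat5b), both proteins at 0, and Jmjd2c at 6. By construction this setting removes narrow peaks, and width is not a measure of signal. The overlap of Jmjd2a with Jmjd2c held at 6 genes with an overlap of 50% of the shorter peak and within 1000 bp. Of the 45 alternative counts of the other lists, 34 stayed within 1.5 times, and the 11 that moved all came from the wider peaks, among them Jmjd2c at receptor genes (12 to 3) and both proteins at target genes (5 to 1) and partner genes (9 to 3). No paired analysis was possible because the peak lists hold no value per library. Depth is unknown, so a missing call is not an absent protein.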
